A study of Mus musculus with 5 samples.

Results

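The cell cycle genes described here are 40 genes that drive or mark division, taken by name from count tables of 23284 gene symbols and grouped by role as 13 regulators of G1, 12 genes of S phase and 15 genes of mitosis. All 40 were found in all 5 tables and all 40 passed the filter on low counts. Total RNA had been profiled in mouse forelimb buds. The E10.5 group was 1 library of forelimb bud from the CD1 strain, with no mutant allele given. The 2 wild-type E11.5 libraries came from the micro-dissected distal forelimb of embryos on a mixed C57BL/6 and CD1 background. The 2 mutant libraries came from the same distal region and background of Hoxa13-/-;Hoxd13-/- embryos, in which a neomycin cassette interrupts the coding region of Hoxa13 and a lacZ reporter sits in the first exon of Hoxd13. Each E11.5 library was made from a pool of tissue samples (N = 4, per the labels), and the pools of a genotype were independent. The E10.5 library differed from the others in stage, dissected region and strain label at once, and these cannot be told apart.

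Reads counted in genes numbered between 45115494 and 84172202 per library. The 40 genes took between 1.106% and 1.166% of them, and the lowest count of any member in any library was 66. Levels are given as CPM, depth-normalised read counts scaled by the trimmed mean of M-values (TMM). Limb mesenchyme markers (Prrx1, Prrx2, Twist1, Msx1, Lhx9, Tbx5, Hoxa13 and Hoxd13) were detected in every library, with a summed level of 1176 CPM at E10.5, 1306 and 1362 in wild type and 1177 and 1236 in the mutant. The sum includes the targeted gene Hoxd13, with 237 and 243 CPM in wild type and 45.9 and 38.2 CPM in the mutant. Hoxd13 alone fell by more than the sum did, so the lower sum does not stand for the other markers. Of these 8 markers, 5 fell in the mutant (Hoxd13, Msx1 with -0.84, Twist1 with -0.48, Lhx9 with -0.42 and Prrx2 with -0.39) and Prrx1 rose (0.49), by the edgeR quasi-likelihood test at an adjusted p below 0.05, and their part in the results on cell cycle genes was not tested. Hoxd13, the targeted gene whose level checks the labels, fell in the mutant, with a log2 fold change of -2.50 (edgeR adjusted p = 1.12e-07). Hoxa13 measured 48.9 and 46.6 CPM in wild type and 46.2 and 38.1 CPM in the mutant (-0.17, edgeR adjusted p = 0.438), and an inserted cassette need not lower the counts elsewhere in the gene, so its level does not check the label. In such bulk tissue, fewer cells of a type and less RNA per cell cannot be told apart.

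A cell enters the division cycle when D-type cyclins, bound to CDK4 or CDK6, phosphorylate the retinoblastoma protein and so release E2F transcription factors. E2F factors then switch on E-type cyclins and the genes of DNA replication. Genes of mitosis are switched on later, through promoter elements known as the cell cycle homology region (CHR) and the CCAAT box that binds NF-Y. The mesenchyme of the early limb bud is highly proliferative, and MYCN is a known growth regulator there.

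The 3 groups differed in their promoter sequences. Members had been chosen by name, but the strings searched are elements already known from genes of these phases. The difference is therefore no separate support for the grouping. RefSeq promoter windows (GRCm38.p6, 250 bases before to 50 after each start) were matched by symbol for 34 of the 40 members. Those not matched were Ccnd1, Ccnd2, Ccne2, Mcm4, Ccna2 and Aurkb. Windows were searched on both strands for E2F-type strings (TTTCGCGC, TTTGGCGC, TTTCCCGC or TTTGCCGC), for CHR strings (TTTGAA or TTTAAA) and for the CCAAT box (CCAAT). E2F-type strings stood in 6 of 11 S phase genes (54.5%), in 2 of 10 G1 regulators (20%) and in 1 of 13 mitosis genes (7.69%), beside 2.6% of the 27025 genes in the table. A CHR string stood in 12 of 13 mitosis genes (92.3%), 3 of 11 S phase genes (27.3%) and 4 of 10 G1 regulators (40%), against 30.6% of all genes. A CCAAT box stood in 12 of 13 mitosis genes (92.3%) and also in 8 of 11 S phase genes (72.7%). The share was 4 of 10 for G1 regulators (40%) and 41.1% for all genes. Both a CHR string and a CCAAT box stood in 11 of 13 mitosis genes (84.6%), against 12.2% of all genes. Both stood in 3 of 11 S phase genes (27.3%) and 2 of 10 G1 regulators (20%). These are matches of letters, not measured binding.

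**Figure D1:**
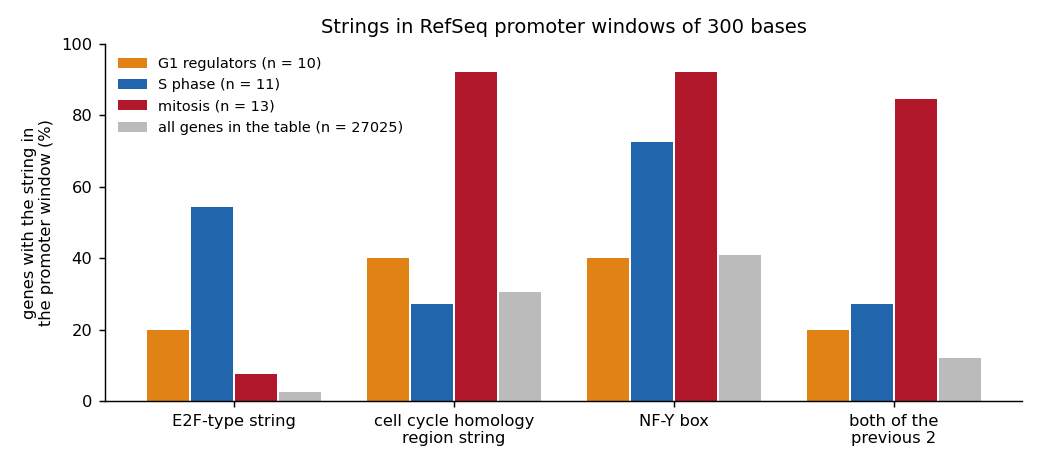
Share of genes (y axis, percent) whose RefSeq promoter window of 300 bases holds an E2F-type string, a CHR string, a CCAAT box (labelled NF-Y box) or both of the last, for the 3 groups of members and for all 27025 genes in the table. The mitosis bars reach 92.3% for the CHR string and 84.6% for both, and the S phase bar reaches 54.5% for the E2F-type string.

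The 200 bases before the start of 3 G1 windows are shown because E2f2 was called in the mutant and Mycn was past 1.5-fold at E10.5 under TMM scaling. The other G1 regulators past 1.5-fold there, Ccne1 (higher) and Cdkn1b (lower), are not shown. No E2F-type string stood in their windows. Capitals mark the searched strings on either strand, each sequence is read 5′ to 3′ on the gene's strand, and positions are on GRCm38.p6. In Mycn, E2F-type strings on opposite strands overlap, a further one follows, and a CHR string on the opposite strand stands near the start. E2f2 has RefSeq windows at 2 starts. Before the first stands a CCAAT box, and its E2F-type string lies after the start and so is not shown, and before the second stand 3 CCAAT boxes and a CHR string.
Mycn, chr12:12941837-12942036, minus strand: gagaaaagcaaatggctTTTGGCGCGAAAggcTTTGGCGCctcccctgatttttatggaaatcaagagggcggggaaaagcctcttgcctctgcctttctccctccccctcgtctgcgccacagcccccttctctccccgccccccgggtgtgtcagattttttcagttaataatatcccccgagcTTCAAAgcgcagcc
E2f2 first start, chr4:136172074-136172273, plus strand: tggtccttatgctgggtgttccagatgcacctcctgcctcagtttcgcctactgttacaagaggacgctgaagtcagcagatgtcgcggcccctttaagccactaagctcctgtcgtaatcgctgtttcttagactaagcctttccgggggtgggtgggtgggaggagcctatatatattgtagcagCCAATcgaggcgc
E2f2 second start, chr4:136180582-136180781, plus strand: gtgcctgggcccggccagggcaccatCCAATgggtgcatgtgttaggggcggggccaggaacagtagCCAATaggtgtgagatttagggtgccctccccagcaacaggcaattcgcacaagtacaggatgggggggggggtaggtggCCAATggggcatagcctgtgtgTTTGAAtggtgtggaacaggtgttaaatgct

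A pair of minichromosome maintenance genes stands for the S phase group, since all their E2F-type strings lie before the start, within the bases printed. In Mcm5 and Mcm6 the strings overlap on opposite strands, as in Mycn, and Mcm6 has a further one nearer to the start.
Mcm5, chr8:75109309-75109508, plus strand: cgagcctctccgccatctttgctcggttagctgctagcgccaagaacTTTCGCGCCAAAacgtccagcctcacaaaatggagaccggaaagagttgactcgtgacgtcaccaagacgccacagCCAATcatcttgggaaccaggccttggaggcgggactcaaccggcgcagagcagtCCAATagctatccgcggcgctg
Mcm6, chr1:128359706-128359905, minus strand: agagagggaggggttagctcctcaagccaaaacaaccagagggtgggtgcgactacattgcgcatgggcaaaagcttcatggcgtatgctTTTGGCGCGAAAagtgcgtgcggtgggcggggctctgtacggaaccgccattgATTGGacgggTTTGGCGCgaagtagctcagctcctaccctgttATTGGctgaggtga

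Of the mitosis group, 3 promoters are shown that hold both a CCAAT box and a CHR string, as 11 of its 13 matched members did. Cdk1 also holds the E2F-type string found in 1 mitosis gene.
Cdk1, chr10:69352913-69353112, minus strand: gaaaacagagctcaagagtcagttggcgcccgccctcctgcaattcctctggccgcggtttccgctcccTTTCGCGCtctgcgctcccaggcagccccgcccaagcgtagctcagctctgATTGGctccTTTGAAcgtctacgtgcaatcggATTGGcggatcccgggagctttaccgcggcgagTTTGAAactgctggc
Ccnb1, chr13:100786487-100786686, minus strand: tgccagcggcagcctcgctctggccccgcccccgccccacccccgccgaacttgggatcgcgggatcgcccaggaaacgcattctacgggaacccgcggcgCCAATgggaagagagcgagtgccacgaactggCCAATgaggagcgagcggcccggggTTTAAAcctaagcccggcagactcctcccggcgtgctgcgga
Cdc20, chr4:118437344-118437543, minus strand: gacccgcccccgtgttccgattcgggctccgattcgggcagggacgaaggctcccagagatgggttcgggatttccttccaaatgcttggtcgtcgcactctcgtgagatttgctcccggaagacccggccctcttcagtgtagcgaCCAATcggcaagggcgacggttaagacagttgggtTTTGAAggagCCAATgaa

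At E11.5, loss of HOXA13 and HOXD13 went with a shift among the D-type cyclins, while the genes of mitosis differed little. Of the 13 G1 regulators 1 rose (Ccnd1) and 2 fell (Ccnd2 and E2f2), at an edgeR quasi-likelihood adjusted p below 0.05 over 16166 genes. No gene of S phase or mitosis was called, 0 of 12 and 0 of 15. At an unadjusted edgeR p below 0.05 there were 9 G1 regulators, 1 S phase gene and 0 mitosis genes. Over all genes tested it was 3131 of 16166. DESeq2 called the same 3 members and no others. The 3 calls are 7.5% of the members, and 7.16% of all genes tested were called (3.82% rose and 3.34% fell), so the share of members called was near the background. The median log2 fold change, mutant over wild type, was -0.25 for the G1 regulators, -0.11 for S phase and -0.02 for mitosis, against -0.000819 over all genes.

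**Figure D2:**
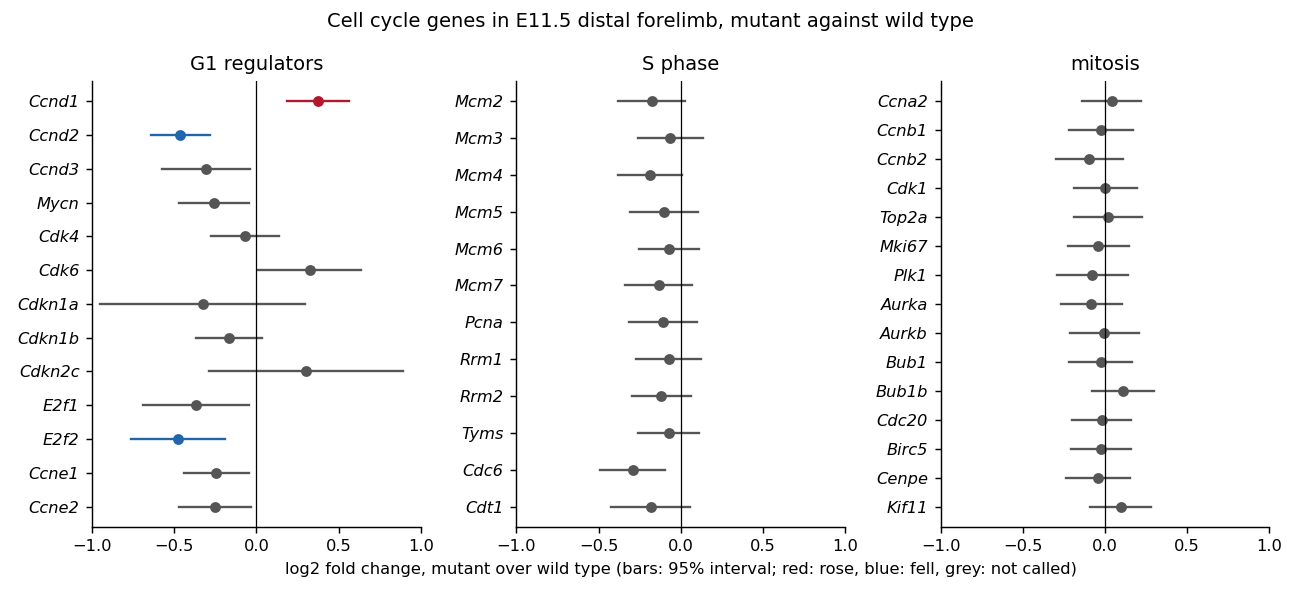
Log2 fold change of each of the 40 genes, mutant over wild type at E11.5 (x axis), with its 95% interval derived from the edgeR test on 2 libraries per genotype (not adjusted for the number of genes). Ccnd1 lies right of 0 and Ccnd2 and E2f2 left of it, and all 15 mitosis genes lie between -0.10 and 0.11.

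Ccnd1, the cyclin D1 gene, measured 287 and 303 CPM in the wild-type libraries and 394 and 367 CPM in the mutant ones. Both mutant libraries lay above both wild-type libraries, and the E10.5 library, at 305 CPM, lay next to wild type. The log2 fold change was 0.38 (SE 0.09, 95% interval 0.19 to 0.57, adjusted p = 0.0216 by edgeR). Ccnd2, the cyclin D2 gene, moved the other way. It measured 479 and 461 CPM in wild type and 338 and 340 CPM in the mutant, with 409 CPM at E10.5. The mutant libraries were the lowest of the 5, and the genotypes did not overlap. Its log2 fold change was -0.46 (SE 0.08, 95% interval -0.64 to -0.28, adjusted p = 0.00502 by edgeR), to 0.725 of the wild-type level. With either mutant library left out, neither cyclin passed the test, with adjusted p of 0.286 and 0.0802 for Ccnd1 and 0.0809 and 0.0632 for Ccnd2 without mutant replicate 1 and 2, while the fold changes stayed between 0.32 and 0.43 and between -0.48 and -0.45 over all settings.

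Cyclin D3, from Ccnd3, measured 80.3 and 91.6 CPM in wild type and 78.2 and 60.1 CPM in the mutant, and 131 CPM at E10.5. The mutant libraries were the lower ones, but mutant replicate 1 lay close to wild-type replicate 1 (log2 fold change -0.31, adjusted p = 0.188 by edgeR). Ccnd3 passed without mutant replicate 1 (-0.51, adjusted p = 0.0228) and without wild-type replicate 1 (-0.41, adjusted p = 0.0251), and with no filter on low counts (adjusted p = 0.048).

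Ratios within a library do not depend on scaling. They use the same counts that gave the calls of Ccnd1 and Ccnd2, so they restate the shift and are no separate support for it. Counts of Ccnd1 relative to Ccnd2 were 0.599 and 0.657 in wild type and 1.17 and 1.08 in the mutant, a 1.79-fold higher mean ratio, with 0.744 at E10.5. The genotypes were separated by more than either pair of replicates differed. The ratio of Ccnd1 to Ccnd3 was 3.58 and 3.31 in wild type, 5.04 and 6.11 in the mutant and 2.33 at E10.5. With 2 libraries against 2, an exact permutation test cannot give a two-sided p below 0.333, so these ratios stand without a test. Per kilobase of the principal GENCODE M21 transcript, the level of Ccnd1 (76.8 and 81.0 CPM per kb) and that of Ccnd2 (75.7 and 72.8) were close in wild type. In the mutant the level of Ccnd1 was 105 and 98.2 CPM per kb and that of Ccnd2 53.4 and 53.8. Ccnd3 stood at 38.0 and 43.3 CPM per kb in wild type and 37.0 and 28.4 in the mutant. Which transcript forms the authors counted is unknown here, so levels per kilobase are approximate.

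**Figure D3:**
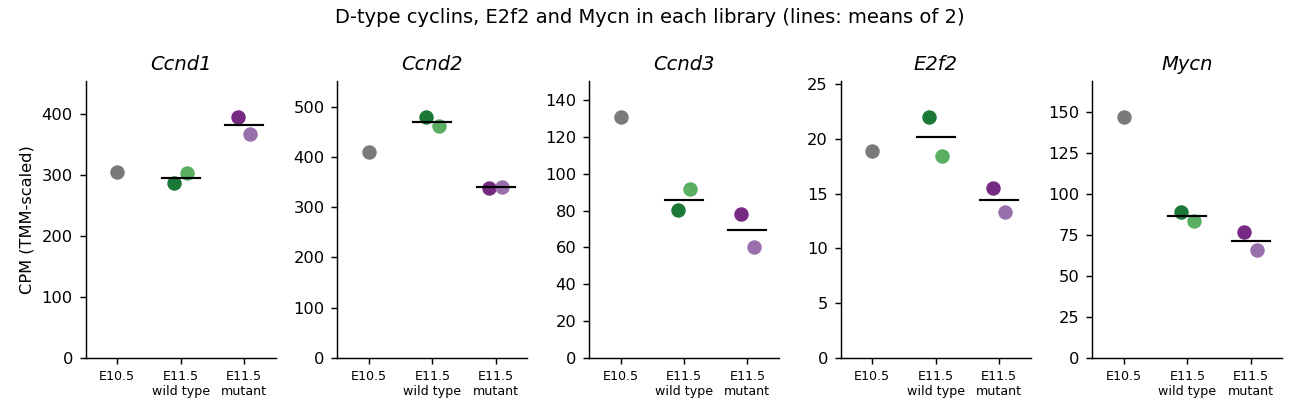
CPM (y axis, from 0, TMM-scaled) of the D-type cyclins Ccnd1, Ccnd2 and Ccnd3, of E2f2 and of Mycn in each of the 5 libraries, with lines at the mean of the 2 libraries of a genotype. The mutant points lie above wild type for Ccnd1 and below it for the other 4 genes, and the E10.5 point is the highest for Ccnd3 and Mycn.

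**Figure D4:**
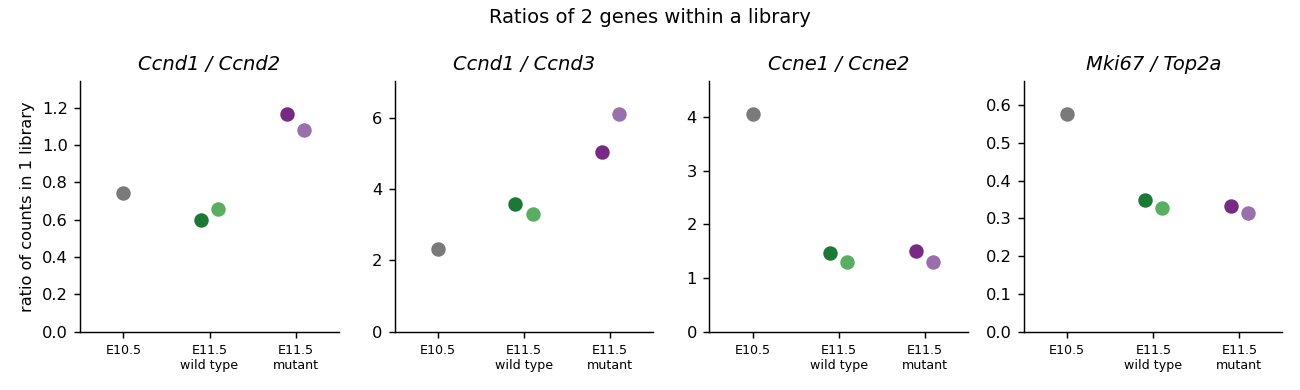
Ratio of the counts of 2 genes within each library (y axis, from 0). Ccnd1 to Ccnd2 is 1.17 and 1.08 in the mutant against 0.599 and 0.657 in wild type, and Ccne1 to Ccne2 is 4.06 at E10.5 against means of 1.38 in wild type and 1.39 in the mutant.

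Exons of Ccnd1, Ccnd2 and Ccnd3 overlap exons of a gene on the opposite strand in GENCODE M21, and whether the counting used strand is unknown here, so part of their counts is uncertain. The neighbour of Ccnd1, Oraov1 (Lto1), had a log2 fold change of -0.03 (adjusted p = 0.942 by edgeR) at a mean of 19.5 CPM in wild type. Ccnd2 overlaps 9330179D12Rik, with 0.610 CPM and -0.16 (adjusted p = 0.902 by edgeR), and Gm43126, whose level was not examined. Bysl, next to Ccnd3, had 42.3 CPM and -0.25 (adjusted p = 0.145 by edgeR).

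The partners of the D-type cyclins showed no call. Cdk4, the main kinase partner, measured 626 and 710 CPM in wild type and 647 and 619 CPM in the mutant, with overlapping genotypes (log2 fold change -0.07). Cdk6, the alternative partner, measured 15.6 and 11.6 CPM in wild type and 17.1 and 16.7 CPM in the mutant (0.32, adjusted p = 0.242 by edgeR). The mutant libraries were the higher ones, and Cdk6 passed only in the fit without wild-type replicate 1 (0.54, adjusted p = 0.0121). Levels per kilobase in wild type were 325 CPM per kb for Cdk4 and 1.18 for Cdk6.

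Inhibitors of cyclin-dependent kinases were not called either. Cdkn1b, which encodes p27, measured 66.8 and 71.4 CPM in wild type and 63.1 and 59.4 CPM in the mutant (log2 fold change -0.17, adjusted p = 0.358). Both mutant libraries were lower. Cdkn1a, the p21 gene induced by p53, measured 1.64 and 2.49 CPM in wild type and 1.46 and 1.84 in the mutant (-0.33, 95% interval -0.95 to 0.30). Cdkn2c, the p18 gene, stayed between 1.25 and 1.66 CPM in the 4 E11.5 libraries (0.30, 95% interval -0.29 to 0.89). Cdkn1a and Cdkn2c were the least abundant members and had the widest intervals of the 40.

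Downstream of the D-type cyclins, E2f2, one of the activating E2F factors, was the third gene called. It measured 22.0 and 18.4 CPM in wild type, 15.5 and 13.3 CPM in the mutant and 18.9 CPM at E10.5. Both mutant libraries were below all others (log2 fold change -0.48, SE 0.13, 95% interval -0.76 to -0.19, adjusted p = 0.0479 by edgeR). The call stood at the threshold and ended with DESeq2's size factors (adjusted p = 0.0513), library-size scaling (0.0921), a stricter filter (0.0569) or all 5 libraries in the fit (0.0509), and without mutant replicate 2 (0.335) or wild-type replicate 1 (0.0965). E2f1 measured 24.4 and 17.4 CPM in wild type and 16.5 and 15.7 CPM in the mutant. Its wild-type libraries differed by more than wild-type replicate 2 differed from the mutant (-0.37, adjusted p = 0.188), and it passed only without wild-type replicate 2 (-0.58, adjusted p = 0.00465). The cyclin E genes were lower in both mutant libraries than in both wild-type ones without passing the test. Ccne1 measured 66.0 and 63.0 CPM in wild type against 55.2 and 53.1 (-0.24, adjusted p = 0.147), and Ccne2 45.1 and 48.3 CPM against 36.9 and 41.1 (-0.25, adjusted p = 0.180).

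Mycn, a growth regulator of the limb mesenchyme, measured 88.7 and 83.4 CPM in wild type and 76.9 and 65.9 CPM in the mutant. Both mutant libraries were lower, but the difference did not pass (log2 fold change -0.26, SE 0.10, adjusted p = 0.152 by edgeR). In all, both mutant libraries lay below both wild-type libraries for 8 of the 13 G1 regulators and above them for 3, and 2 overlapped. Over all genes tested the shares were 25.6% below and 23.9% above.

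S phase genes had small differences in a common direction. All 12 had a log2 fold change below 0, between -0.29 and -0.07, against 8115 of 16166 genes, and both mutant libraries lay below both wild-type libraries for 9 of the 12 (25.6% of all genes). None passed the test. Cdc6, which loads the replicative helicase, came closest, with 92.4 and 94.9 CPM in wild type and 80.0 and 72.0 CPM in the mutant (-0.29, 95% interval -0.49 to -0.10, adjusted p = 0.0782 by edgeR). Its mutant libraries were both lower, and it passed without wild-type replicate 1 (adjusted p = 0.0288) and with no filter on low counts (0.0461). Cdt1, its partner in helicase loading, measured 39.0 and 35.4 CPM in wild type and 35.3 and 29.8 CPM in the mutant (-0.18).

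The 6 subunits of the MCM helicase, Mcm2 to Mcm7, had log2 fold changes between -0.19 (Mcm4) and -0.07 (Mcm3). Mcm2 measured 272 and 307 CPM in wild type and 263 and 247 CPM in the mutant, and Mcm7 420 and 481 CPM against 414 and 403 CPM. These pairs did not overlap, but wild-type replicate 1 lay nearer to the mutant than to the other wild-type library. Mcm2 (adjusted p = 0.0324) and Mcm7 (0.048) passed only without wild-type replicate 1. The sliding clamp gene Pcna (-0.11), the ribonucleotide reductase genes Rrm1 (-0.07) and Rrm2 (-0.12) and the thymidylate synthase gene Tyms (-0.07) had adjusted p between 0.491 and 0.738.

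The size of the S phase difference was close to that between replicates. Wild-type replicate 1 lay below wild-type replicate 2 for 10 of the 12 genes, by a median of -0.13 on the log2 scale, against a median of 0.06 between mutant replicate 1 and 2. Relative to the mean of the wild-type libraries, the S phase median was -0.06 and 0.06 in the wild-type libraries and -0.13 and -0.13 in the mutant ones. Without wild-type replicate 2 only 8 of the 12 had a fold change below 0 and the median was -0.04, and without wild-type replicate 1 the median was -0.19.

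**Figure D5:**
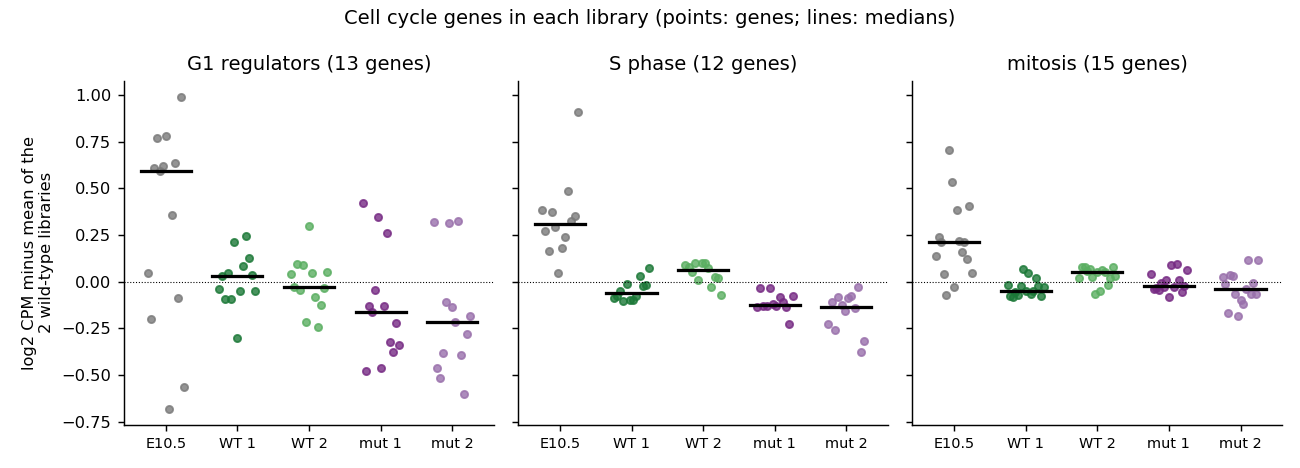
Log2 CPM of each gene minus the mean of the 2 wild-type libraries (y axis) in each library, with lines at the median of the group. The E10.5 medians are 0.59, 0.31 and 0.21 for G1 regulators, S phase and mitosis, and the mitosis medians of the 4 E11.5 libraries lie between -0.05 and 0.05.

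Genes of mitosis had nearly the same level in both genotypes. Their log2 fold changes lay between -0.10 (Ccnb2) and 0.11 (Bub1b), with adjusted p of 0.562 or more, and the bounds of their 95% intervals lay between -0.30 and 0.30. The genotypes overlapped for 10 of 15 genes, and for 8170 of all 16166 genes tested. The median was -0.02 over all 4 libraries and 0.05 without wild-type replicate 2, a change no larger than the difference between the wild-type replicates (median -0.10). Top2a, the topoisomerase that untangles replicated DNA, measured 1757 and 1933 CPM in wild type and 1834 and 1880 CPM in the mutant (0.02). Mki67, which encodes the proliferation marker Ki-67, measured 610 and 630 CPM in wild type and 608 and 593 CPM in the mutant (-0.04). For Top2a the mutant lay between the wild-type libraries, and for Mki67 both mutant libraries lay just below both wild-type ones.

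The mitotic kinase Cdk1 measured 255 and 275 CPM in wild type and 256 and 271 CPM in the mutant (log2 fold change 0.000921, 95% interval -0.19 to 0.19). Its cyclin partners Ccna2 (0.04), Ccnb1 (-0.02) and Ccnb2 (-0.10), the kinases Plk1 (-0.08), Aurka (-0.09) and Aurkb (-0.004) and the checkpoint kinases Bub1 (-0.03) and Bub1b (0.11) were not called. The activator of the anaphase complex Cdc20 (-0.02), survivin, from Birc5 (-0.02), and the motor protein genes Cenpe (-0.04) and Kif11 (0.10) were not called either.

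A wider set of 129 cell cycle genes placed these values among their relatives. Of them 127 were tested, 2 rose and 2 fell, which is 3.15% against 7.16% of all genes. All 4 belong to mitosis, where 56 were tested, and their share there, 7.14%, was near that over all genes. Ncapd2, a subunit of condensin I, rose from 246 and 229 CPM in wild type to 452 and 412 CPM in the mutant (log2 fold change 0.87, SE 0.09, adjusted p = 9.75e-05 by edgeR), with 181 CPM at E10.5. The other condensin genes listed had -0.01 (Smc2), -0.03 (Smc4), 0.11 (Ncapg), -0.08 (Ncaph) and 0.04 (Ncapg2). Pttg1, which encodes securin, the inhibitor of separase, fell from 67.2 and 68.1 CPM to 35.2 and 39.3 CPM (-0.85, SE 0.10, adjusted p = 0.000199), while the separase gene Espl1 had 0.06. Both Ncapd2 and Pttg1 were further from the other genotype than any replicates were from each other, and both passed in all 12 alternative settings. Cdca3, which triggers mitotic entry, rose (0.36, adjusted p = 0.0233) and Ckap2l, a spindle protein gene, fell (-0.38, adjusted p = 0.0469). Cdca3 lost its call without either mutant replicate, and Ckap2l under 4 of the 12 settings. The values of the non-called condensin genes and of Espl1 were chosen after they were seen.

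In the wider S phase list 0 of 44 genes passed (4 at an unadjusted p below 0.05, 0 by DESeq2), with a median of -0.05. Over all genes tested, 3131 of 16166 had an unadjusted edgeR p below 0.05. In the wider G1 list 0 of 27 passed (6 at an unadjusted p below 0.05), with a median of -0.07, and DESeq2 called 1. That gene, Rbl2, encodes the retinoblastoma relative p130 of resting cells and had 15.6 and 15.3 CPM in wild type and 22.6 and 19.1 CPM in the mutant (log2 fold change 0.44, adjusted p = 0.051 by edgeR). Rbl2 was singled out after its value was seen.

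Marker sums of other limb cell types also differed between the genotypes, and their part in the results on cell cycle genes was not tested. Of 8 erythroid markers 1 rose and 0 fell, and their summed level was 2952 and 2883 CPM in the mutant against 2351 and 2318 CPM in wild type, with 3963 at E10.5. Hba-a1 was listed at 0 in all libraries. Neuron and Schwann cell markers had 2 of 8 fallen, with sums of 17.2 and 17.55 CPM against 36.8 and 41.9, and muscle markers 1 of 8 fallen, with 78.7 and 101.8 CPM against 110.7 and 129.1. Macrophage markers had 2 of 8 risen (68.4 and 65.3 CPM against 44.5 and 56.2) and endothelial markers 1 of 8 (233 and 207 CPM against 189 and 202). Surface ectoderm markers had 2 of 8 fallen and overlapping sums (269 and 287 CPM against 285 and 305). No marker other than Hba-a1 was at 0 in any library.

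Between E10.5 and wild-type E11.5, 34 of the 40 members were higher in the E10.5 library than the wild-type mean under TMM scaling, and 22 with library size alone. With 1 library at E10.5 there is no test. The rule of a difference of at least 2-fold from each wild-type library was met by 0 of the 40 members, against 3.86% of all genes that were higher at E10.5 and 12.9% that were lower. At 1.5-fold, 4 members were higher (9.83% of all genes) and 1 was lower (19.5% of all genes). The E10.5 value lay above both wild-type libraries for 32 of the 40 (41.6% of all genes) and below both for 4 (44.1%). The median log2 difference, E10.5 minus wild type, was 0.59 for G1 regulators, 0.31 for S phase and 0.21 for mitosis, against -0.02 over all genes. Against wild-type replicate 2 alone these medians were 0.47, 0.28 and 0.13, and against wild-type replicate 1 alone 0.39, 0.35 and 0.21.

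These differences depend on the scaling. The TMM factor of the E10.5 library was 0.872, against 1.01 to 1.05 in the others. With library size alone the median of all genes shifted by -0.23, and the medians of the groups were 0.36, 0.07 and -0.03, so that the mitosis group changed sign. Relative to the median of all genes, which no scaling of a library changes, 34 of the 40 members were higher at E10.5. The ribosomal RNA transcript Rn45s took 2.05% of the counts at E10.5 and 0.632% to 0.805% in the others, and Lars2 took 0.587% and 0.0117% to 0.0507%. Marker sums differed as well, with 3963 CPM of erythroid markers at E10.5, 45.9 CPM of muscle markers and 16.3 CPM of macrophage markers, and the part of either in the cell cycle differences was not tested.

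Under TMM scaling, the 4 members past 1.5-fold on the higher side were Ccne1, Mycn, Cdt1 and Mki67. Ccne1, the cyclin E1 gene, measured 128 CPM at E10.5 against 66.0 and 63.0 CPM, a log2 difference of 0.99. Mycn measured 147 CPM against 88.7 and 83.4 (0.77), Cdt1 69.7 CPM against 39.0 and 35.4 (0.91), and Mki67 1013 CPM against 610 and 630 (0.71). All 4 were higher at E10.5 than in any E11.5 library of either genotype. Without wild-type replicate 1 the 2-fold rule was met by Ccne1 (1.02), and without wild-type replicate 2 by Cdkn1a (1.07). With library size alone, an alternative added after seeing the data at this threshold, 1 member was past 1.5-fold higher (Ccne1) and 2 were past it lower (Cdkn1b and Ccne2). The log2 differences were then 0.75 for Ccne1, 0.67 for Cdt1, 0.53 for Mycn and 0.47 for Mki67.

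The cyclin E genes differed in opposite directions at E10.5. Ccne2 measured 31.6 CPM at E10.5 against 45.1 and 48.3 CPM in wild type (-0.56), so that the ratio of Ccne1 to Ccne2 counts was 4.06 at E10.5 against a mean of 1.38 in wild type and 1.39 in the mutant. The E10.5 ratio stood far outside the range of the other 4 libraries, which did not separate by genotype. Under TMM scaling Cdkn1b was the member past 1.5-fold on the lower side, with 43.0 CPM at E10.5 against 66.8 and 71.4 (-0.68). Per count of Cdk4, which was higher at E10.5 (1005 CPM against 626 and 710), Cdkn1b stood at 0.0428 at E10.5 and between 0.0959 and 0.107 in the 4 E11.5 libraries. Exons of Ccne2 and Cdk4 overlap a gene on the opposite strand, so part of the counts in these ratios is uncertain. Among the D-type cyclins, Ccnd3 had 0.61, Ccnd1 0.05 and Ccnd2 -0.20. In mitosis Mki67 had 0.71, Plk1 0.53 and Cenpe 0.40, whereas Top2a (-0.07) and Aurka (-0.03) differed little. Top2a measured 1757 CPM at E10.5 against 1757 and 1933 in wild type, and Aurka 139 CPM against 137 and 147. The ratio of Mki67 to Top2a counts was 0.577 at E10.5 and between 0.315 and 0.347 at E11.5.

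In the wider lists the E10.5 medians were 0.24 for G1 and growth arrest, 0.19 for S phase and 0.13 for mitosis. There 5 genes met the 2-fold rule, and all were chosen after their values were seen. Of 27 G1 and growth arrest genes, 2 were higher and 2 lower. Of 56 mitosis genes 1 was higher and 0 were lower, and of 44 S phase genes 0 met the rule. Over all genes 3.86% were higher by this rule and 12.9% lower. Myc, the paralogue of Mycn, measured 17.0 CPM at E10.5 against 3.82 and 2.52 in wild type (2.44). The inhibitor gene Cdkn2d (1.52) and Fzr1, an activator of the anaphase complex (1.40), were also higher. Cdkn2b, the p15 inhibitor gene, measured 0.0681 CPM, from only 5 reads, against 0.874 and 0.953 (-3.21). Btg2, an antiproliferative p53 target, was lower by a log2 difference of -1.21.

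The mutant values may be set beside those at E10.5, with the reminder that both comparisons share the wild-type libraries. For Ccnd1 the difference from wild type was 0.38 in the mutant and 0.05 at E10.5, for Ccnd2 -0.46 and -0.20, for E2f2 -0.48 and -0.09, for Mycn -0.26 and 0.77, and for Ccne1 -0.24 and 0.99. Mki67 had -0.04 and 0.71.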

How the data were processed

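Total RNA of 5 mouse forelimb libraries had been depleted of ribosomal RNA with Ribo-Zero and sequenced from both ends as strand-specific libraries, per the labels' protocols. Reads had been processed on the mm9 genome with SAMtools, HTSeq, TopHat2 2.0.13 and Cufflinks 2.1.1, per the submitters' processing notes. Annotation and strand use in counting: not given in the sources used here. The deposited values are raw read counts for each gene symbol, with no normalization by the authors. The 5 HTSeq total lines (40.2% to 50.5% of all reads) entered neither library sizes nor tests.

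Mutant and wild type at E11.5 were compared by edgeR 4.0.16 (R 4.3.3), with its quasi-likelihood test on the 4 E11.5 libraries, with genotype as the only term, filterByExpr (minimum count 10, minimum total 15), TMM scaling and Benjamini-Hochberg adjustment over all 16166 genes. The procedure was tested on simulated data, but the changes put in were larger than those of the members called here. The simulation therefore does not speak to differences of their size. "Rose" and "fell" mean an adjusted p below 0.05. P-values rest on 2 pools per genotype, and edgeR draws each gene's spread toward a trend over all genes tested. For the E10.5 library, log2 CPM (TMM scaling, prior count 2) was set against the wild-type mean. DESeq2 1.42.0 was an alternative. GENCODE M21 (GRCm38) gave names of overlapping genes and transcript lengths only. Exons of 11 members overlap another gene on the opposite strand: Ccnd1, Ccnd2, Ccnd3, Cdk4, Cdk6, Cdkn1a, Ccne2, Mcm7, Ccna2, Plk1 and Cdc20. A pseudogene of at least 90% identity over at least 25% of the transcript (BLAST 2.17.0) exists for 10 members. These are Ccnd3, Mcm4, Mcm7, Pcna, Tyms, Cdc6, Ccnb1, Plk1, Cdc20 and Kif11. The counts of both sets are uncertain. Named genes were all members, and of the wider lists up to 4 genes per list and direction of smallest p that passed. Of the 129 wider genes 1 symbol (Ticrr) was not matched, and Cdkn2a was filtered out. Members and lists were chosen with earlier results of these data known.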

Additional observations from a re-analysis of the deposited data

How the results depend on the processing

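The numbers of members called higher and lower were 1 and 2. The lower count was 1 with DESeq2's size factors, library size alone, a filter of 50 counts or all 5 libraries, and 4 with no filter, where 959 genes were called higher. With 1 library left out, genes called ranged from 410 to 1113 (higher) and 373 to 905 (lower), members called from 0 to 2 (higher) and 0 to 5 (lower), and the median log2 fold changes from -0.2247 to -0.154 (G1), -0.1852 to -0.04426 (S phase) and -0.06061 to 0.04878 (mitosis). Genes whose small fold changes crossed 0, with their leave-one-out ranges, were Aurkb (-0.1105 to 0.09728), Birc5 (-0.05457 to 0.01032), Bub1 (-0.09947 to 0.05006), Ccnb1 (-0.1095 to 0.06935), Cdc20 (-0.05877 to 0.0186), Cdk1 (-0.06235 to 0.06812), Cdk4 (-0.1687 to 0.03634), Cdkn1a (-0.5992 to 0.02279), Cenpe (-0.1245 to 0.04878), Mcm3 (-0.1515 to 0.02773), Mcm5 (-0.2132 to 0.0134), Pcna (-0.2128 to 0.009289), Plk1 (-0.1757 to 0.01622), Rrm1 (-0.1575 to 0.01483), Top2a (-0.06061 to 0.0986). None of these was called. Cdk1 was also below 0 with DESeq2's size factors (-0.0004294), the DESeq2 test (-0.0004575) and all 5 libraries (-0.006349), and Aurkb above 0 with library size alone (0.009005). The cause was not tested. Replicate numbers did not pair the libraries: same-numbered libraries' deviations correlated at -0.0775 over 16166 genes. With the replicate number as a block, 676 genes were called higher and 576 lower, and the members called were again Ccnd1, Ccnd2 and E2f2. At E10.5, library size alone gave medians of 0.356 (G1), 0.07294 (S phase) and -0.02554 (mitosis), and a 1.5-fold threshold gave 4 members higher and 1 lower, or 1 higher and 2 lower when combined with library size alone, chosen after seeing the data. Without either wild-type library, 1 member was past 2-fold higher, with medians of 0.3919 to 0.475 (G1), 0.2774 to 0.3485 (S phase) and 0.1301 to 0.2082 (mitosis). With 2 libraries per genotype and 1 at E10.5, small differences were not detectable, and counting error adds most to Cdkn1a and Cdkn2c.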
